A study of Homo sapiens with 8 samples.

Results

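The 10 genes described here sense or answer double-stranded RNA: RIGI (listed as DDX58 in older annotation), IFIH1, DHX58, TLR3, EIF2AK2, MAVS, OAS1, OAS2, OAS3 and OASL. They were taken from a list of names chosen with earlier results of these data known, so comparisons with all genes below are descriptions. Each was read through a probe set that carries exactly 1 gene symbol. Where a gene has several, the one with the highest mean over the arrays was used. All 10 were found among 18417 genes measured this way, and each had 1 such probe set. Their RNA was measured in T47D cells, an established luminal breast cancer line, on 8 whole-transcript arrays in 4 groups of 2. Every group had been held in steroid-deprived medium for 2 days and then transfected with 200 nM siRNA, either a scrambled control or 3 mixed siRNAs to HSD17B1, whose product 17β-HSD1 makes estradiol from estrone. After 48 h the medium was replaced by medium with 1 nM estradiol (E2) or with ethanol vehicle for 2 days. The groups are called control or knockdown after the siRNA, and vehicle or E2 after the medium. The labels describe 2 independent culture experiments, and the replicate number was taken as the experiment. The control cells also carried a transfected double-stranded RNA, and cells without siRNA were not analysed here. The comparisons address what siRNA against 17β-HSD1 changed in each medium, and how far the control arrays differed among themselves. Values are log2 signals, so a difference of 1 is a 2-fold difference. Signals of different genes come from different probes and are not compared with each other.

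Double-stranded RNA in the cytoplasm is bound by the helicases RIG-I (RIGI) and MDA5 (IFIH1), which signal through the mitochondrial adaptor MAVS to induce interferon. LGP2 (DHX58) lacks their signalling domains and modulates both, and TLR3 senses double-stranded RNA in endosomes. The kinase PKR (EIF2AK2) and the OAS enzymes are effectors: on binding double-stranded RNA, PKR phosphorylates the translation factor eIF2α, while OAS1, OAS2 and OAS3 make oligoadenylates that act as a second messenger. Most of these genes are themselves transcribed in response to interferon, through promoter elements built of repeated GAAA letters, and MAVS is usually regarded as present in most cells without induction.

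Some facts of the whole series touch these results. The first knockdown vehicle array was the least like the rest, with a mean correlation to the other arrays of 0.973 against 0.981 to 0.988. HSD17B1 had signals of 8.56 to 9.35 in the 4 control arrays and 8.32 to 8.41 in the 4 knockdown arrays, a limma change of -0.56 ± 0.16 (SE) that missed the threshold (adjusted p = 0.221). All 10 luminal markers examined, ESR1, GATA3 and FOXA1 among them, lay above the median probe set. Of 12 immune cell markers measured, all but NKG7 lay below it, PTPRC and CD3E included, and 7 were below the lower quartile. Of 8 fibroblast markers all but COL1A1 lay below the median. The summed immune marker signal ran from 10.09 to 10.17 in control vehicle, from 10.01 to 10.14 in knockdown E2 and from 9.94 to 10.53 in knockdown vehicle, and was 10.12 on both control E2 arrays. In RNA from a whole culture, more transcript per cell and more cells with the transcript cannot be told apart. The samples are cultures of a single cell line, and whether any other cell type had a part in the results was not tested.

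Promoter windows are shown first, to set the letters of genes that passed in at least 1 siRNA comparison beside those of EIF2AK2 and MAVS, which passed in none. RefSeq windows of 300 bases on GRCh38.p14, from 250 before to 50 after the annotated gene start, were found for 7 of the 10 genes, and none for DHX58, OAS2 and OASL. They were searched on both strands for GAAANNGAAA and GAAANGAAA, pairs of GAAA with a gap of 2 or 1 bases, where a stretch can hold both. At least 1 match was found in 6 of the 7 windows, against 6.40% of all 35116 windows. GAAANNGAAA was in 4 of the 7 and in 3.57% of all, and GAAANGAAA in 3 of the 7 and in 3.12% of all. GAAANGAAA was added to the search after the windows had been read, and RIGI and OAS1 match through it alone. The counts of 6 and 3 are therefore descriptions and no test of these windows. The count of 4 is a description too, since the genes were chosen by name with earlier results known. In the lines below, matches are in capitals, the strand is that of the gene, and MAVS is given whole because it holds no match.
RIGI, chr9:32526366-32526424, minus strand: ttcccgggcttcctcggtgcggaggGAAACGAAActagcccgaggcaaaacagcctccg
IFIH1, chr2:162318803-162318868, minus strand: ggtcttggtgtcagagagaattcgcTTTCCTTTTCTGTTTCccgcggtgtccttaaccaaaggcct
IFIH1, chr2:162318671-162318730, minus strand: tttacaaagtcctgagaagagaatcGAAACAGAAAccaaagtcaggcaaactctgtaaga
TLR3, chr4:186069127-186069186, plus strand: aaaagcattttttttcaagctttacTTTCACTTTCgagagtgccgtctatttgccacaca
EIF2AK2, chr2:37156952-37157011, minus strand: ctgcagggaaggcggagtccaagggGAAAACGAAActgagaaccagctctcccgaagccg
OAS1, chr12:112906920-112906978, plus strand: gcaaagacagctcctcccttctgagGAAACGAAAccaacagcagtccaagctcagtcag
OAS3, chr12:112938301-112938365, plus strand: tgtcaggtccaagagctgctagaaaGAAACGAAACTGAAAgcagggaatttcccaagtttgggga
OAS3, chr12:112938437-112938496, plus strand: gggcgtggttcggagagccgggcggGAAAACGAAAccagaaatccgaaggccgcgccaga
MAVS, chr20:3846584-3846883, plus strand: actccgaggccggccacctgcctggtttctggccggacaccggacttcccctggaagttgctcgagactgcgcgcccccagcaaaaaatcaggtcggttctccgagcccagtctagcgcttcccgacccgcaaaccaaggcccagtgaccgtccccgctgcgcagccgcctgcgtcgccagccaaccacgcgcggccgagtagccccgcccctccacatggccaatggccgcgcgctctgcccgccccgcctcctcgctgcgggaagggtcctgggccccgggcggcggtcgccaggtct

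Counting the first base of the gene as 0, the OAS1 pair began at position -17 and the nearer OAS3 pair at -12. In IFIH1 a pair began at -21, and 2 overlapping pairs on the other strand began at -159 and -153. The pairs of TLR3 and EIF2AK2 crossed the gene start, beginning at -4 and -6, and that of RIGI lay farther off, at -203. EIF2AK2 thus holds a pair of the kind seen in IFIH1 and OAS3, while its difference between the siRNAs, given below, was the smallest of the 6 genes with a match. A match is a stretch of letters, not a tested binding site.

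**Figure D1:**
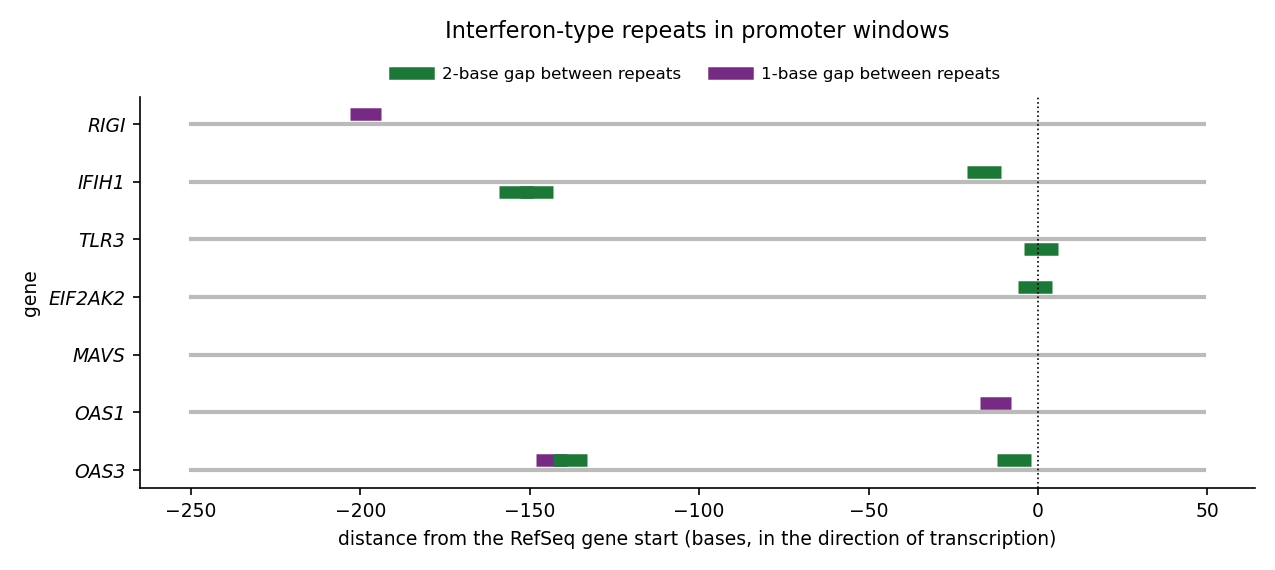
Positions of GAAA pairs in 7 promoter windows, by distance in bases from the RefSeq gene start, with bars above the line on the gene's strand and below it on the other. Green marks a gap of 2 bases and purple a gap of 1, 6 windows hold at least 1 pair, and MAVS holds none.

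Averaged over the media, 9 of the 10 genes had a higher signal with 17β-HSD1 siRNA than with control siRNA, against 54.3% of all genes. The exception was MAVS. The median change of the 10 was 1.08, against 0.01 over all genes. The 10 genes were chosen with earlier results known, so these comparisons are no test. By limma 2 rose, OASL and TLR3, and 0.240% of all 21214 probe sets tested were called higher. With the replicate number, taken as the culture experiment, as a block 8 rose, all but EIF2AK2 and MAVS. There 0.726% of probe sets were called higher. With the numbers of the control vehicle arrays crossed, tried after the data were seen, 3 rose with the block, IFIH1, TLR3 and OASL. In that fit 75 of 21214 probe sets were called higher. Among 18417 genes ordered by the averaged change, OASL stood at rank 14, OAS2 at 16, RIGI at 25, EIF2AK2 at 272 and MAVS at 13272. Without the block, the count moved with single arrays, and so did the share of probe sets called higher. Without the second control E2 array it was 8, against 0.533% of probe sets, and without the second control vehicle array it was 4 (DHX58, OAS2, OAS3 and OASL), against 0.349%. Without the first control E2 array it was 1 (OASL), against 0.165%, and without the second knockdown vehicle array 1 (TLR3), against 0.193%. It stayed 2 without the first knockdown vehicle array, against 0.212%. Without the first control vehicle array it was 0, against 0.0990%, and without either knockdown E2 array it was 0, where 0% of probe sets were called higher.

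Among the cytoplasmic helicases, RIGI had signals of 8.07 and 8.96 in control vehicle, 7.91 and 9.70 in control E2, 9.40 and 10.14 in knockdown vehicle, and 9.68 and 10.35 in knockdown E2 (replicates 1 and 2 in that order, here and below). The second control E2 array lay above the first array of each knockdown group, so control and knockdown overlapped. The averaged change was 1.23 ± 0.35 (SE, 4 arrays against 4), or 2.35-fold, with a limma adjusted p of 0.193, or 0.0046 with the experiment as a block. It was 0.79 without the first control E2 array.

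IFIH1, the sensor of long double-stranded RNA, read 7.96 and 8.22 in control vehicle, 7.81 and 9.09 in control E2, 8.88 and 9.59 in knockdown vehicle, and 9.35 and 9.67 in knockdown E2. Only the second control E2 array reached into the knockdown range, and within each medium the siRNA groups did not overlap. Averaged over the media, IFIH1 differed by 1.10 ± 0.25 or 2.15-fold (adjusted p = 0.0948, or 0.00558 with the block).

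DHX58 read 7.81 and 8.43 in control vehicle, 7.62 and 8.57 in control E2, 8.97 and 9.11 in knockdown vehicle, and 9.14 and 8.90 in knockdown E2. All 4 knockdown arrays lay above all 4 control arrays, and the knockdown arrays spanned little. The DHX58 signal differed on average by 0.92 ± 0.20 or 1.89-fold (adjusted p = 0.0868, or 0.0231 with the block).

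TLR3, the endosomal receptor, had the steadiest control arrays of the genes that differed, at 6.47 and 6.34 with vehicle, and 6.32 and 6.55 after E2. The knockdown arrays read 6.90 and 7.59 with vehicle, and 7.20 and 7.34 after E2. The groups did not overlap, and TLR3 rose 1.78-fold (0.84 ± 0.15, adjusted p = 0.0371, or 0.0117 with the block). The call was lost without either control vehicle array, without the first control E2 array and without either knockdown E2 array. Over all alternatives the change stayed between 0.66 and 1.01, with adjusted p from 0.0117 to 0.2.

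MAVS, the adaptor that carries the signal of RIG-I and MDA5, read 8.77 and 8.69 in control vehicle, 8.64 and 8.58 in control E2, 8.69 and 8.53 in knockdown vehicle, and 8.65 and 8.52 in knockdown E2. The 8 arrays lay close together and the groups overlapped. The averaged change was -0.07 ± 0.10 (adjusted p = 0.937), with a 95% interval from -0.29 to 0.15.

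EIF2AK2, the PKR gene, read 9.94 and 10.10 in control vehicle, 9.95 and 10.80 in control E2, 10.19 and 10.63 in knockdown vehicle, and 10.65 and 10.98 in knockdown E2. The second control E2 array was higher than 3 of the 4 knockdown arrays. The averaged change of 0.42 ± 0.18, or 1.33-fold, did not pass with or without the block (adjusted p = 0.158 and 0.489), and its 95% interval ran from 0.02 to 0.81. It was 0.20 without the first control E2 array and 0.63 without the second.

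**Figure D2:**
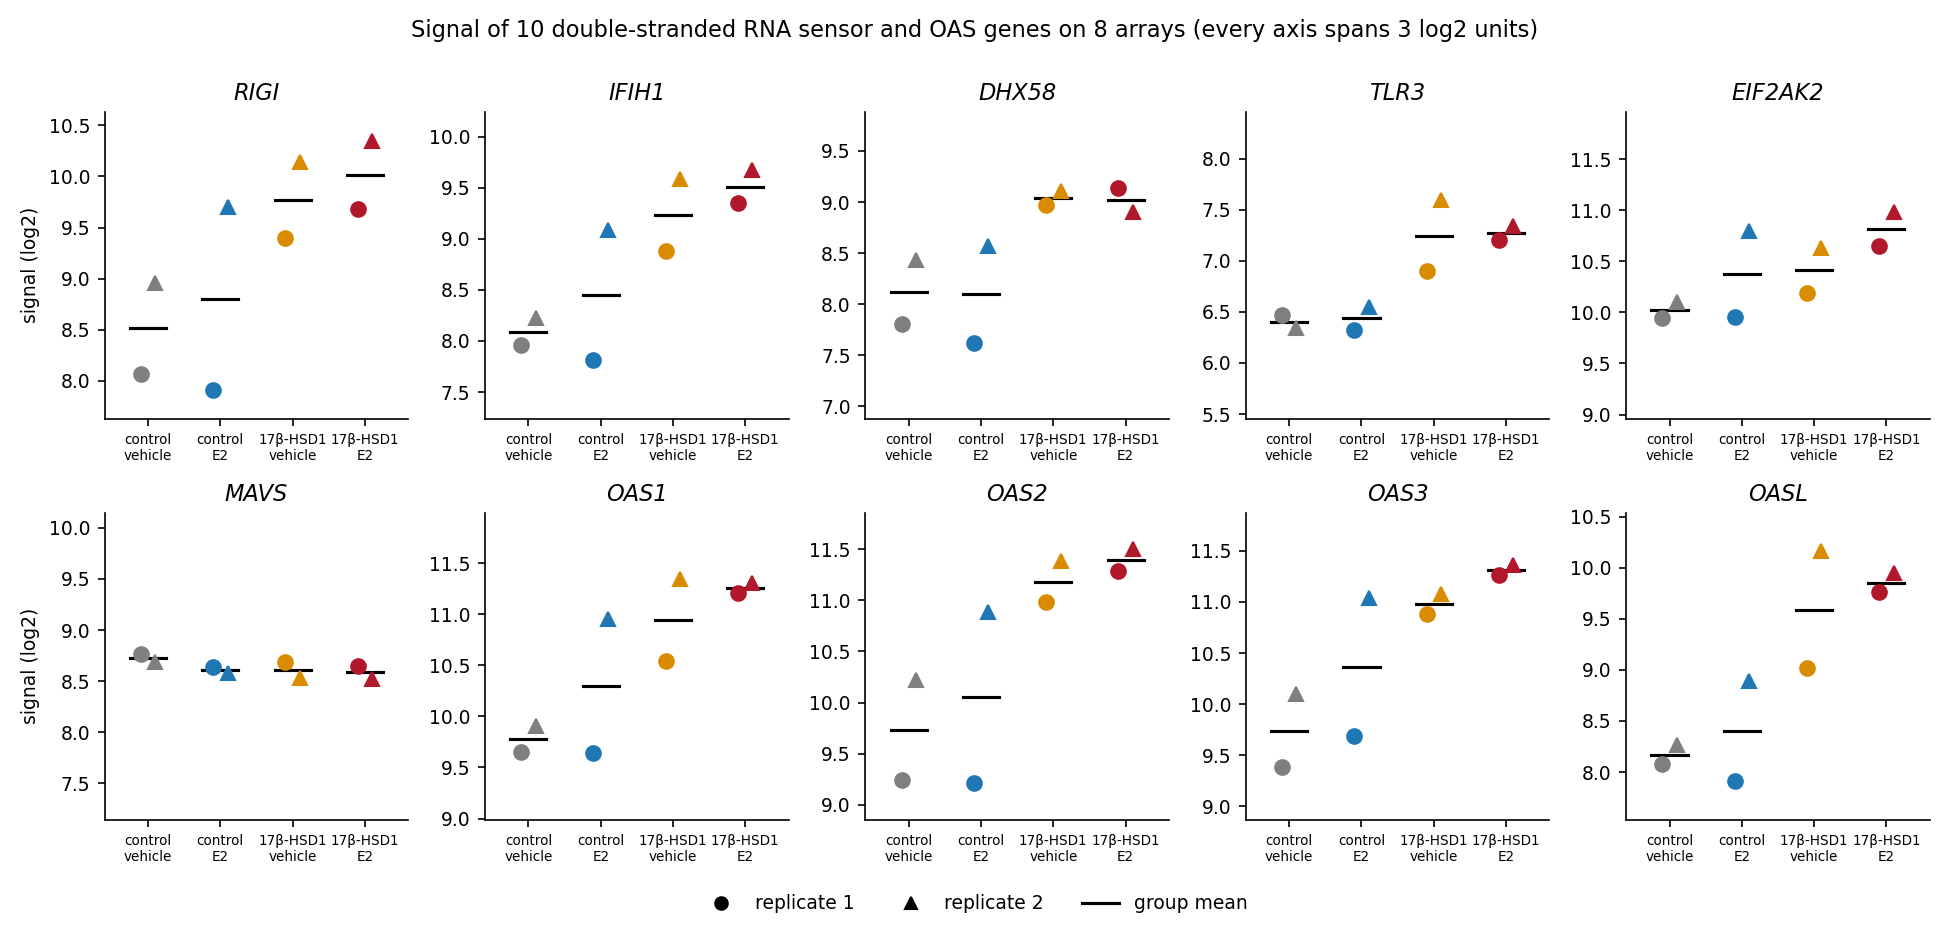
Signal (log2) of the 10 genes on each array, by siRNA and medium, with circles for replicate 1, triangles for replicate 2 and a line at the group mean. In control E2 the triangle lies above the circle for all but MAVS, by 0.84 or more for all but MAVS and TLR3.

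Of the OAS genes, OAS1, OAS3 and OAS2 are consecutive protein-coding genes on chromosome 12, and OASL lies elsewhere on it. OAS1 read 9.65 and 9.91 in control vehicle, 9.64 and 10.95 in control E2, 10.54 and 11.34 in knockdown vehicle, and 11.21 and 11.31 in knockdown E2. Its second control E2 array exceeded the first knockdown vehicle array. On average OAS1 differed by 1.06 ± 0.25 or 2.09-fold (adjusted p = 0.114, or 0.0132 with the block).

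OAS2 read 9.24 and 10.22 in control vehicle, 9.21 and 10.89 in control E2, 10.98 and 11.39 in knockdown vehicle, and 11.29 and 11.50 in knockdown E2. No control array reached the knockdown arrays, though the second control E2 array came close to the lowest of them. The averaged change was 1.40 ± 0.31 or 2.64-fold (adjusted p = 0.0948, or 0.00562 with the block).

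OAS3, which encodes the largest of the OAS enzymes, read 9.38 and 10.10 in control vehicle, 9.69 and 11.04 in control E2, 10.88 and 11.08 in knockdown vehicle, and 11.26 and 11.36 in knockdown E2. Again only the second control E2 array entered the knockdown range. For OAS3 the averaged change was 1.09 ± 0.25 or 2.13-fold (adjusted p = 0.102, or 0.0132 with the block).

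OASL, which makes no oligoadenylates and enhances RIG-I signalling, read 8.08 and 8.26 in control vehicle, 7.91 and 8.89 in control E2, 9.02 and 10.16 in knockdown vehicle, and 9.76 and 9.95 in knockdown E2. All knockdown arrays were above all control arrays. OASL rose 2.71-fold (1.44 ± 0.25, adjusted p = 0.0338, or 0.00199 with the block). The call was lost without the first control vehicle array, the second knockdown vehicle array or either knockdown E2 array, and over all alternatives the adjusted p ran from 0.00199 to 0.2. Altogether 4 genes, DHX58, TLR3, OAS2 and OASL, had every knockdown array above every control array, against 2.12% of all genes. Without the second control E2 array the count was 9, against 3.20%, and without the first knockdown vehicle array it was 7, against 3.52%. Leaving an array out can only keep or raise such a count. These arrays were the highest control and the lowest knockdown array for most of the genes, so neither rise adds support.

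Taken medium by medium, the changes were close to each other in size, and none passed the threshold. In vehicle the 10 genes had a median change of 1.15, against 0.02 over all genes. The changes in vehicle were 1.46 ± 0.44 for OAS2, 1.42 ± 0.35 for OASL, 1.26 ± 0.49 for RIGI, 1.24 ± 0.35 for OAS3, 1.16 ± 0.36 for OAS1 and 1.14 ± 0.35 for IFIH1 (SE, 2 arrays against 2). DHX58 differed by 0.92 ± 0.28, TLR3 by 0.84 ± 0.21, EIF2AK2 by 0.39 ± 0.25 and MAVS by -0.12 ± 0.14. Single arrays moved these values: without the second knockdown vehicle array OASL was at 0.85, TLR3 at 0.49, OAS1 at 0.76 and EIF2AK2 at 0.17, and without the first EIF2AK2 was at 0.60. Without the first control vehicle array RIGI was at 0.81, OAS2 at 0.97 and DHX58 at 0.61. The lowest adjusted p was 0.361, for OASL, and 0% of probe sets were called. By limma 8 of the 10 had an unadjusted p below 0.05, and the share of all probe sets below it is not given here. With the block OASL alone passed (adjusted p = 0.0454), with 0.146% of probe sets called higher. A fit on the 4 vehicle arrays alone called 6, RIGI, IFIH1, OAS1, OAS2, OAS3 and OASL, with 0.240% of probe sets called higher. In vehicle 9 genes had both knockdown arrays above both control arrays, against 11.4% of all genes.

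In E2 the median change was 0.96, against 0.00 over all genes. OASL differed by 1.45 ± 0.35, OAS2 by 1.34 ± 0.44, RIGI by 1.21 ± 0.49, IFIH1 by 1.06 ± 0.35, OAS1 by 0.97 ± 0.36 and OAS3 by 0.95 ± 0.35. DHX58 differed by 0.92 ± 0.28, TLR3 by 0.83 ± 0.21, EIF2AK2 by 0.44 ± 0.25 and MAVS by -0.02 ± 0.14. None passed here either (lowest adjusted p 0.42, for OASL, with 0% of probe sets called). By limma 8 of 10 had an unadjusted p below 0.05, and again the share of all probe sets below it is not given. With the block OASL alone passed (adjusted p = 0.0413, 0.193% called higher). A limma fit on the E2 arrays alone called 0 of the genes (lowest adjusted p 0.192, for TLR3), with 1 of 21214 probe sets called. In E2 7 genes had both knockdown arrays above both control arrays, against 18.3% of all genes. Without the second control E2 array 7 genes were called, all but TLR3, EIF2AK2 and MAVS, where 0.292% of probe sets were called higher, and the median change was 1.62. Without the first it was 0.37 and none was called. Between these 2 settings RIGI ran from 0.32 to 2.10, OAS2 from 0.50 to 2.18, OAS1 from 0.31 to 1.62, OAS3 from 0.27 to 1.62 and IFIH1 from 0.43 to 1.70. DHX58 ran from 0.45 to 1.40, EIF2AK2 from 0.02 to 0.86, OASL from 0.96 to 1.94 and TLR3 from 0.72 to 0.95.

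The siRNA change did not pass as different between the media for any of the 10, in limma's interaction term (vehicle change subtracted from E2 change). The interaction ran from -0.29 ± 0.50 for OAS3 to 0.09 ± 0.20 for MAVS, each with an adjusted p of 1. Of the 10, 0 had an unadjusted p below 0.05, and 0% of all probe sets were called at an adjusted p below 0.05. These values do not show that the changes were alike, since the 95% interval reached from -1.57 to 1.48 for RIGI and from -1.40 to 0.81 for OAS3. For TLR3 it was narrower, from -0.65 to 0.65.

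**Figure D3:**
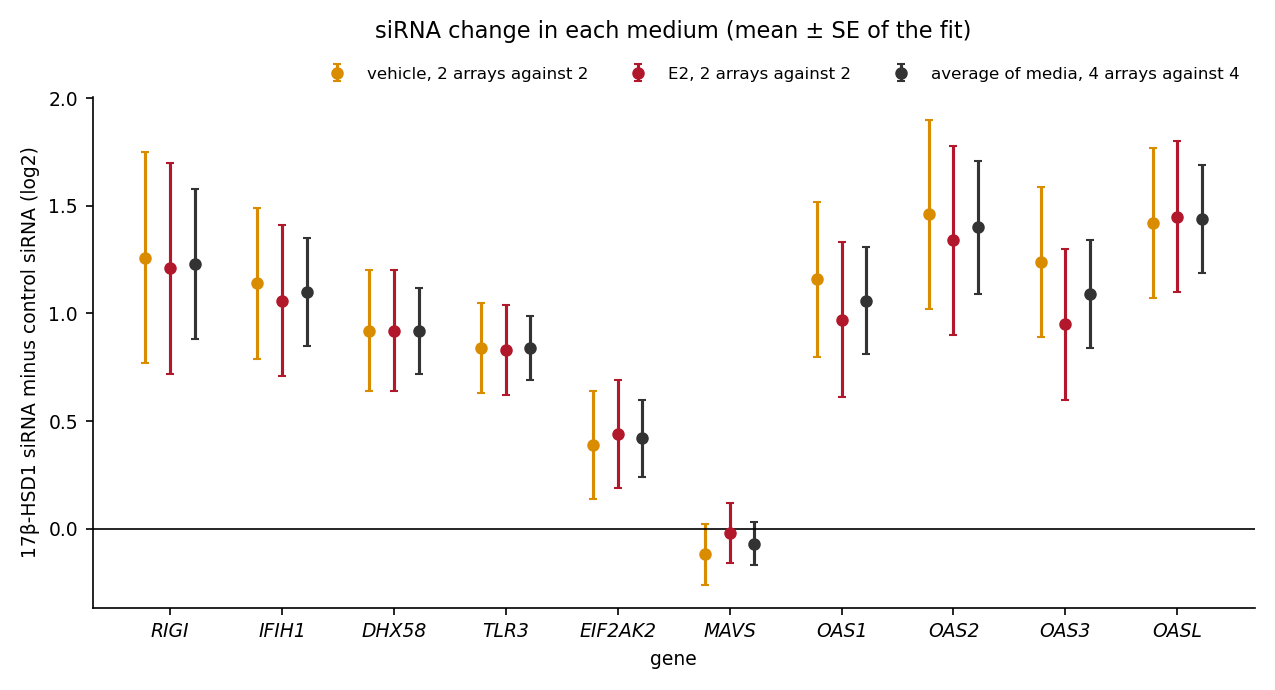
Change from control siRNA to 17β-HSD1 siRNA (log2) for each gene in vehicle, in E2 and averaged over both, with bars of 1 SE from the fit. The values in vehicle and E2 differ by at most 0.29, for OAS3, and MAVS lies between -0.12 and -0.02.

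The control arrays were uneven for these genes, above all in E2. In control E2, replicate 2 exceeded replicate 1 by 1.79 for RIGI, 1.68 for OAS2, 1.35 for OAS3, 1.31 for OAS1 and 1.28 for IFIH1. A gap of 1 or more, seen here in 5 of the 10, was seen in 0.467% of all genes, and the median gap was 1.13 for the 10 and 0.12 for all genes. OASL had a gap of 0.98, DHX58 of 0.95, EIF2AK2 of 0.84, TLR3 of 0.23 and MAVS of 0.06. For RIGI, OAS2, OAS3, OAS1, IFIH1, DHX58 and EIF2AK2 this gap between 2 control arrays was larger than the averaged change with 17β-HSD1 siRNA, and for TLR3 and OASL it was smaller.

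In control vehicle the gaps were smaller, with a median of 0.26 against 0.15 over all genes. OAS2 had a gap of 0.98, RIGI of 0.89, OAS3 of 0.72 and DHX58 of 0.62, each above the 95th percentile of all genes, which was 0.53. Replicate 2 was again the higher array, except for TLR3 and MAVS. In knockdown vehicle OASL had the widest gap, at 1.14, followed by OAS1 at 0.80, RIGI at 0.74, IFIH1 at 0.71 and TLR3 at 0.69, where the median over all genes was 0.29. In knockdown E2 the arrays were closest, with a median gap of 0.20 and a largest gap of 0.66, for RIGI. In the deposited values replicate 2 was the higher array for 8 or 9 of the 10 genes in every group. It was higher for 39.4% to 55.5% of all genes. After quantile normalization the difference in knockdown vehicle turned from 0.14 to -0.02 for DHX58 and from 0.20 to -0.03 for OAS3.

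Ordered over arrays, control E2 replicate 1 was the lowest for 7 of the 10 genes and control vehicle replicate 1 for 2 more. Control E2 replicate 2 was the highest control array for 9, and knockdown vehicle replicate 1 the lowest knockdown array for 8. The shares of all genes with these orders are not given here. The mean of the 10, each centred on its own average, was -0.86 on control E2 replicate 1, -0.79 and -0.41 on the control vehicle arrays, and 0.18 on control E2 replicate 2. Knockdown arrays had means of 0.11 and 0.62 with vehicle, then 0.49 and 0.66 with E2. Control E2 replicate 2 thus lay just above knockdown vehicle replicate 1, the array least like the rest over all probe sets.

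**Figure D4:**
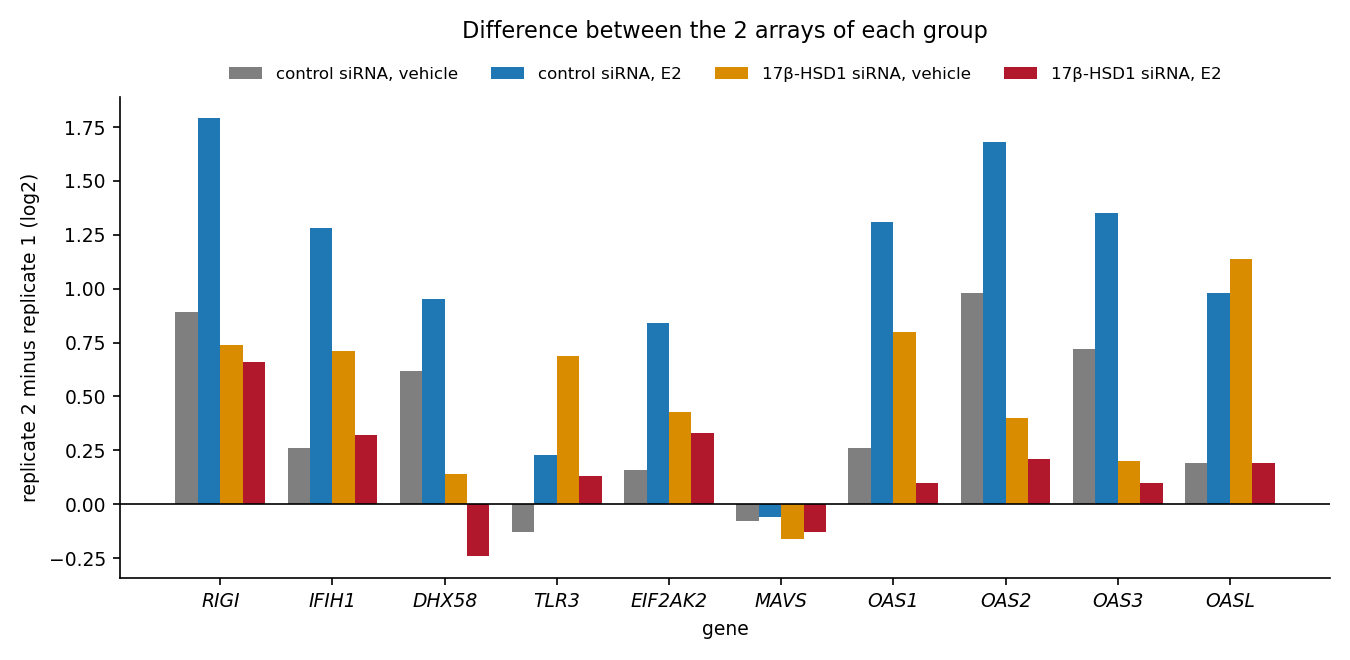
Replicate 2 minus replicate 1 (log2) for each gene in each of the 4 groups. The control E2 bars reach 1.79 for RIGI and exceed 0.9 for 7 genes, and all 4 bars of MAVS lie below 0.

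Set against the control array of the same number, taken as the same experiment, the knockdown array was higher in all 4 pairs for 9 of the 10 genes. This was so for 9.21% of all genes. The pairing is an assumption. Deviations of same-numbered arrays from their group means correlated at -0.20 between control vehicle and knockdown vehicle, and at 0.31 between control E2 and knockdown E2. In vehicle the median difference was 0.93 in experiment 1 and 1.17 in experiment 2. In E2 it was 1.56 in experiment 1 and 0.47 in experiment 2, while the medians over all genes lay between -0.04 and 0.10 in the 4 pairs. A difference of 1 or more was found for 4 and 6 genes in vehicle and for 7 and 1 in E2, against 0.342%, 0.348%, 0.668% and 0.141% of all genes.

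For 7 genes, RIGI, IFIH1, DHX58, EIF2AK2, OAS1, OAS2 and OAS3, the largest of the 4 differences was that in E2 of experiment 1 and the smallest that in E2 of experiment 2. OAS2 differed by 2.08 and 0.61 in E2, and by 1.74 and 1.17 in vehicle. RIGI differed by 1.77 and 0.65 in E2, and by 1.33 and 1.18 in vehicle. OAS1 differed by 1.57 and 0.36 in E2, and by 0.89 and 1.43 in vehicle. TLR3 and OASL followed another order, lowest in vehicle of experiment 1 and highest in vehicle of experiment 2. OASL differed by 0.94 and 1.89 with vehicle, and by 1.85 and 1.05 with E2. TLR3 differed by 0.43 and 1.25 with vehicle, and by 0.88 and 0.79 with E2. No more than 2 pairs per medium were available, so these orders are descriptions, and their shares over all genes are not given here.

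**Figure D5:**
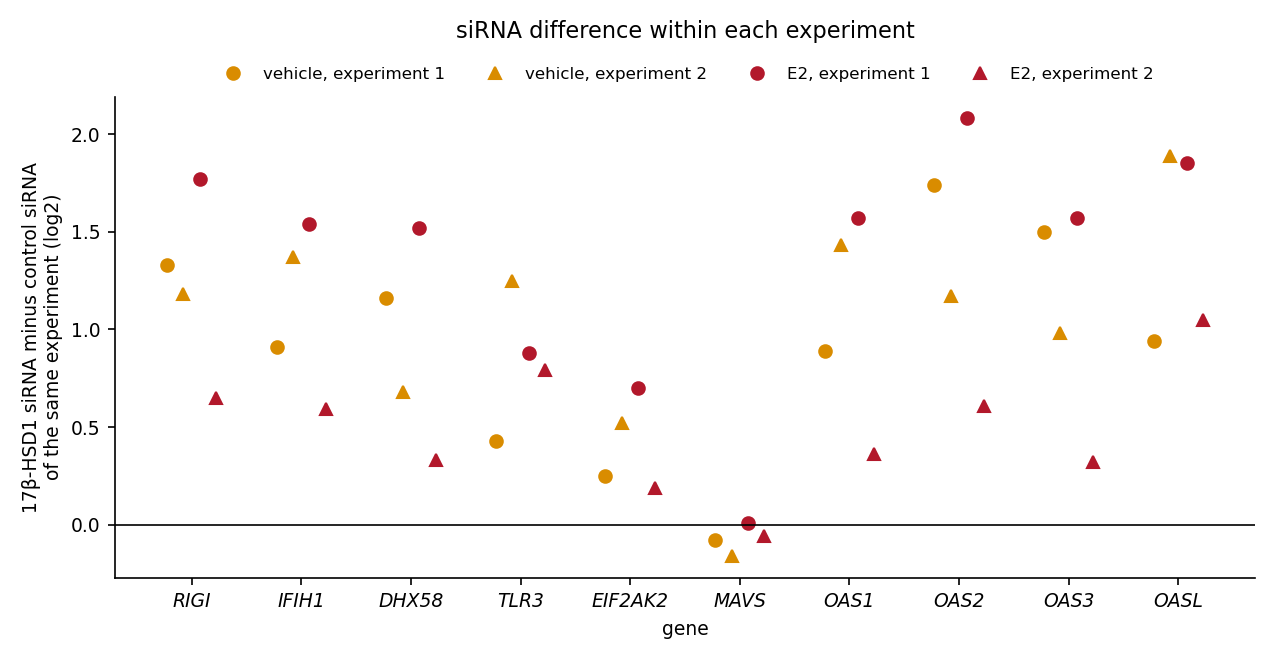
Difference between the 17β-HSD1 siRNA array and the control siRNA array of the same experiment (log2), in vehicle (orange) and E2 (red), for experiment 1 (circles) and experiment 2 (triangles). For all but TLR3, OASL and MAVS the E2 points of experiment 1 and 2 are the highest and the lowest of the gene.

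None of the 10 passed for E2 against vehicle by limma. On average over the siRNAs 1.55% of all probe sets were called, with control siRNA alone 0.0848% and with 17β-HSD1 siRNA alone 0.269%. The averaged E2 changes ran from -0.07 ± 0.10 for MAVS to 0.48 ± 0.25 for OAS3, with a median of 0.27 against -0.02 over all genes and a lowest adjusted p of 0.591, for EIF2AK2. No member had an unadjusted p below 0.05. With control siRNA, the difference between E2 and vehicle was above 0 for 2 of the 10 genes in experiment 1 (median -0.14) and for 9 in experiment 2 (median 0.69). The largest of these was that of OAS1 in experiment 2, at 1.04, and OAS1 stood at -0.01 in experiment 1. With 17β-HSD1 siRNA the medians were 0.35 and 0.04. Without control E2 replicate 1, OAS3 was called higher with E2 by limma (adjusted p = 0.0322), as were 1.32% of probe sets.

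The wider pathway was taken from 5 lists with 72 other genes, of which 65 were measured. In the averaged siRNA contrast 1 fell, 0 rose and 64 did not pass, and with the block 3 rose and 1 fell. Of all probe sets 0.240% were called higher and 0.217% lower, or 0.726% and 0.618% with the block. The median over the 65 was 0.03. Among 18 adaptors and kinases CHUK, the gene of IκB kinase α, fell to 0.483-fold (-1.05 ± 0.13, adjusted p = 0.0104). TRIM25, the ubiquitin ligase that activates RIG-I, differed by 0.31 ± 0.10 (adjusted p = 0.276), the interferon regulatory factor gene IRF7 by 0.24 ± 0.12 and RNF135, a second ligase of RIG-I, by 0.17 ± 0.10. IRF3 and TBK1, which act directly below MAVS, were at -0.05 ± 0.10 and 0.05 ± 0.13, and are named after their values were seen.

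Of 21 other nucleic acid sensors and antiviral RNA-binding proteins, 0 passed, and 3 rose with the block. DDX60L differed by 1.79 ± 0.36 (adjusted p = 0.0617, or 0.00118 with the block), its relative DDX60 by 1.41 ± 0.34 (0.122, or 0.0045) and ZNFX1, a helicase that binds viral RNA, by 0.81 ± 0.15 (0.0534, or 0.00562). ZC3HAV1, the zinc finger antiviral protein gene, differed by 0.45 ± 0.13 (adjusted p = 0.233). DDX60 and DDX60L are close copies, so part of the signal of either may come from the other.

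None of the 11 negative regulators passed in either fit. ADAR, which edits double-stranded RNA so that MDA5 and PKR ignore it, differed by 0.43 ± 0.14 (adjusted p = 0.263), TNFAIP3 by 0.39 ± 0.15, TRIM59 by -0.47 ± 0.19 and the mitochondrial protein gene NLRX1 by 0.20 ± 0.11. None of the 12 genes around PKR and eIF2α passed either. PRKRA, an activator of PKR, differed by -0.39 ± 0.13 (adjusted p = 0.317), and the phosphatase subunit genes PPP1R15A and PPP1R15B by 0.25 ± 0.10 and -0.38 ± 0.17. EIF2S1, which encodes eIF2α itself, differed by -0.26 ± 0.13. Of the 3 measured genes around oligoadenylate action and turnover, 0 passed, with ABCE1, which encodes a ribosome recycling factor, at -0.62 ± 0.19 (adjusted p = 0.241), PDE12 at -0.21 ± 0.11 and CNP at 0.10 ± 0.13.

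Over the 8 arrays, RIGI, IFIH1, DHX58, OAS1, OAS2, OAS3 and OASL followed the mean of the other 9 genes with Pearson correlations of 0.93 to 0.99. The value was 0.88 for EIF2AK2, 0.87 for TLR3 and -0.73 for MAVS. Of 1358 other genes that spanned at least 1 on the log2 scale, those most like the mean of the 10 were IFI44 (0.997), DDX60 (0.993), IFIT3 (0.991), HERC6 (0.991), DDX60L (0.990) and RSAD2 (0.990). IFI44 read 6.06 and 6.69 in control vehicle, 5.70 and 8.11 in control E2, 7.80 and 8.85 in knockdown vehicle, and 8.64 and 8.86 in knockdown E2. IFI44 was chosen for its likeness over these arrays, so its order of arrays is given by that choice. The arrays share the siRNA groups and the experiments, so these correlations describe the 8 arrays and were not tested.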

How the data were processed

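The 8 RNA samples were hybridised to Affymetrix arrays of the type Human Gene 1.0 ST, per the labels. The authors deposited 1 value per probe set for 33297 probe sets, on a log2 scale as read from the values (2.42 to 15.16). How they were background-corrected, summarised and normalized was not given in the labels used here, and values were tested as deposited. Array medians lay between 7.25 and 7.37. Names came from GEO's platform annotation, checked by gene identifier against RefSeq (GRCh38.p14, names and promoter windows only): 19460 had 1 symbol, 1754 several and 12083 none. The 21214 with a symbol entered limma 3.58.1 (R 4.3.3, lmFit with 1 coefficient per group, eBayes, Benjamini-Hochberg over all), which left 4 residual degrees of freedom. The fit was tested on simulated data with independent noise on each array. A true change of 1 in either direction was called for 41% of altered probe sets in vehicle, 55% in E2 and 86% on average. For a change of 0.5 these shares were 1%, 0% and 29%. Of 127 calls in the averaged contrast 12 were false. A call is an adjusted p below 0.05. With 2 arrays a group, their number limits the precision.

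The labels name 2 independent cell culture experiments and number the replicates 1 and 2, and the number was taken as the experiment. Same-numbered arrays had deviations from their group means that correlated at 0.31 to 0.44 for 4 of the 6 pairs of groups. For control siRNA with vehicle the correlation was 0.01 with 17β-HSD1 siRNA with E2, and -0.20 with 17β-HSD1 siRNA with vehicle. The block is this number as a fixed term.

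The members and lists were chosen with earlier results of these data known, and no list was tested as a set. The text names the 10 members, HSD17B1, up to 4 genes per pathway list with the smallest p in the averaged siRNA contrast, called list genes, and the 6 genes most like the members' mean. IRF3, TBK1 and 7 cell type markers are named outside this rule, after their values were seen. GAAANGAAA was added to the search after the windows had been read.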

Additional observations from a re-analysis of the deposited data

How the results depend on the processing

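The count of members called in the averaged siRNA contrast was 2 with all arrays. It was 8 with the replicate block, 0 with probe sets lacking a symbol added, 0 after quantile normalization and 1 (TLR3) with a trended robust spread, and ran from 0 to 8 when single arrays were left out. In vehicle, where it was 0, it was 1 with the block, 6 in the fit of the compared arrays alone and 0 without any single array. In E2, also 0, it was 1 with the block and 0 to 7 without single arrays. For E2 against vehicle on average, it ran from 0 to 1 without single arrays. The count of pathway genes called was 1 with all arrays, 4 with the block, 0 with all probe sets, 2 with the trended spread and 0 to 4 without single arrays. The median change of the members without single arrays ran from 0.82 to 1.42 in vehicle, from 0.37 to 1.62 in E2 and from 0.77 to 1.41 on average. No member's averaged siRNA change was reversed under any of the 16 alternatives. Only quantile normalization and the removal of single arrays could alter these changes. The other settings leave them as they are, so no reversal was possible there. In the averaged siRNA contrast 51 of 21214 probe sets were called higher and 46 lower with all arrays, and 154 and 131 with the block. These counts were 36 and 26 after quantile normalization, and 43 and 50 with the trended spread. With probe sets lacking a symbol added, 0 of 33297 were called, so the member count of 0 there holds for every gene. The fit of the compared arrays alone called 0 members in E2. The causes of the shifts between settings were not tested.

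Pairing the control vehicle arrays the other way round, tried after the data were seen because 1 correlation was negative, gave 3 members, 3 pathway genes and 170 probe sets called in the averaged siRNA contrast and 0 probe sets in either medium.

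Values near 0 turned sign. After quantile normalization the interaction was -0.03 for DHX58, 0.03 for TLR3, -0.05 for EIF2AK2 and -0.02 for OASL. Without single arrays the siRNA change of MAVS in E2 ran from -0.09 to 0.04. The averaged E2 change ran from -0.18 to 0.71 for RIGI, -0.00 to 0.64 for IFIH1, -0.26 to 0.21 for DHX58, -0.14 to 0.20 for TLR3, -0.15 to 0.69 for OAS2 and -0.04 to 0.53 for OASL. The interaction ran from -0.94 to 0.85 for RIGI, -0.72 to 0.56 for IFIH1, -0.47 to 0.48 for DHX58, -0.35 to 0.34 for TLR3, -0.37 to 0.48 for EIF2AK2, -0.85 to 0.46 for OAS1, -0.95 to 0.73 for OAS2, -0.97 to 0.38 for OAS3 and -0.54 to 0.60 for OASL. With 1 array left in a group, its spread was assumed to be that of the other groups. With 2 arrays a group, differences within the intervals given cannot be resolved.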
